A study of Mus musculus with 24 samples.

Results

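The genes described here make, carry, convert and read out retinoids, the vitamin A compounds. They were chosen by name: protein-coding mouse genes of the Aldh1a, Rar, Rarres, Rxr, Crabp, Rbp, Cyp26, Rdh, Dhrs and Adh series, together with Stra6, Stra6l, Lrat, Bco1 and Bco2. The GENCODE M21 annotation holds 57 genes with such names, and 46 of them are among the 16170 protein-coding genes listed in the count tables. Other members of these families are not analysed here. RNA was measured by poly(A) sequencing in female wild-type C57BL/6J mice, 11 weeks old at the start. Every mouse, controls included, carried a silk ligature around both maxillary second molars from day 7 until tissue was taken on day 14, so no library shows an unligated mouth. The 3 groups had sham surgery and vehicle (Sham), ovaries removed on day 0 and vehicle (OVX), or ovaries removed and a daily 1 µg of estradiol benzoate given under the skin from day 4 (OVXE2). Each group gave 4 libraries of gingiva and 4 of the dentoalveolar complex (DAC), which is bone and teeth stripped of soft tissue, 24 in all. The labels call them biological replicates without stating that each is a separate animal, so the p-values measure the spread between these libraries.

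Cells take up retinol with the help of the membrane receptor STRA6 and store it as esters made by LRAT, and BCO1 cuts beta-carotene into retinal. Alcohol and short-chain dehydrogenases interconvert retinol and retinal, the ALDH1A enzymes oxidise retinal to retinoic acid in an irreversible step, and CYP26 enzymes break retinoic acid down. Small cytosolic proteins of the RBP and CRABP families carry retinol and retinoic acid, and retinoic acid acts on nuclear receptors made of a RAR and an RXR partner. In oral mucosa retinoids are known for governing how the epithelium keratinises, and in bone and teeth for effects on osteoclasts and on tooth formation. Several genes caught by the name rule have other main substrates. ADH5 acts on formaldehyde bound to glutathione, and DHRS7C sits in the sarcoplasmic reticulum of striated muscle.

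Gingival libraries held 18598422 to 26001342 gene counts, and DAC libraries 14771830 to 29248358. The tissues matched their labels by marker genes. Krt13 and Krt14, the 2 listed of 8 stratified epithelium markers, took 6.59 to 8.90% of gingival counts and 0.0837 to 0.546% of DAC counts, and osteoblast and osteocyte markers (5 listed of 6) took 0.423 to 0.894% in the DAC, against 0.00309 to 0.0105% of gingival counts. One DAC library stood apart: OVX replicate 1 had 13.2% of its counts on nasal gland and airway genes, against 0.193 to 1.69% in the other DAC libraries. A set of 4 DAC libraries (Sham 2 and 4, OVX 1, OVXE2 2) had the most brain neuron RNA, at most 0.0406% of counts, and the DAC comparisons were repeated without them. In bulk tissue, fewer cells of a type and less RNA per cell cannot be told apart, and this holds for each difference below. Levels are given as counts-per-million (CPM) with TMM scaling. A gene is said to have passed, risen or fallen where edgeR's quasi-likelihood test gave a Benjamini-Hochberg adjusted p under 0.05 over all genes of the fit.

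Of the 46 genes, 34 were counted deeply enough for the test in gingiva and 33 in the DAC, where Adh6a did not pass the filter on low counts. Per kilobase of exon, gingiva was led by the retinol carrier Rbp2 at 253 ± 28.7 RPKM (counts-per-million divided by the exon length in kilobases, SD, n = 12), followed by Crabp2 at 190.5 ± 24.3, Rbp7 at 108 ± 23.8, Dhrs1 at 84.3 ± 4.69 and the receptor Rxra at 67.6 ± 3.48. In the DAC the retinoic acid carriers Crabp1 (45.6 ± 11.5 RPKM) and Crabp2 (39.1 ± 7.28) led, and their ranges overlapped. Dhrs1 at 27.1 ± 2.70 RPKM, Dhrs3 at 27.1 ± 7.53 and Rarres2 at 25.2 ± 6.92 came next in the DAC, and these neighbours did not differ beyond their spread. The retinol carriers that led in gingiva were thus not among the leaders in the DAC. Lrat was near the bottom in the DAC, at 0.0691 ± 0.0445 RPKM against 1.21 ± 0.534 in gingiva. No fit included 12 of the genes, with 0 to 121 counts each over all 24 libraries: Adh4, Adh6b, Dhrs2, Rbp3 and 8 of the 11 listed Rdh genes. Rdh16f1 and Rdh19 had no count. Rdh16f1 overlaps both Rdh1 and Rdh9 on the same strand, so their counts are uncertain.

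**Figure D1:**
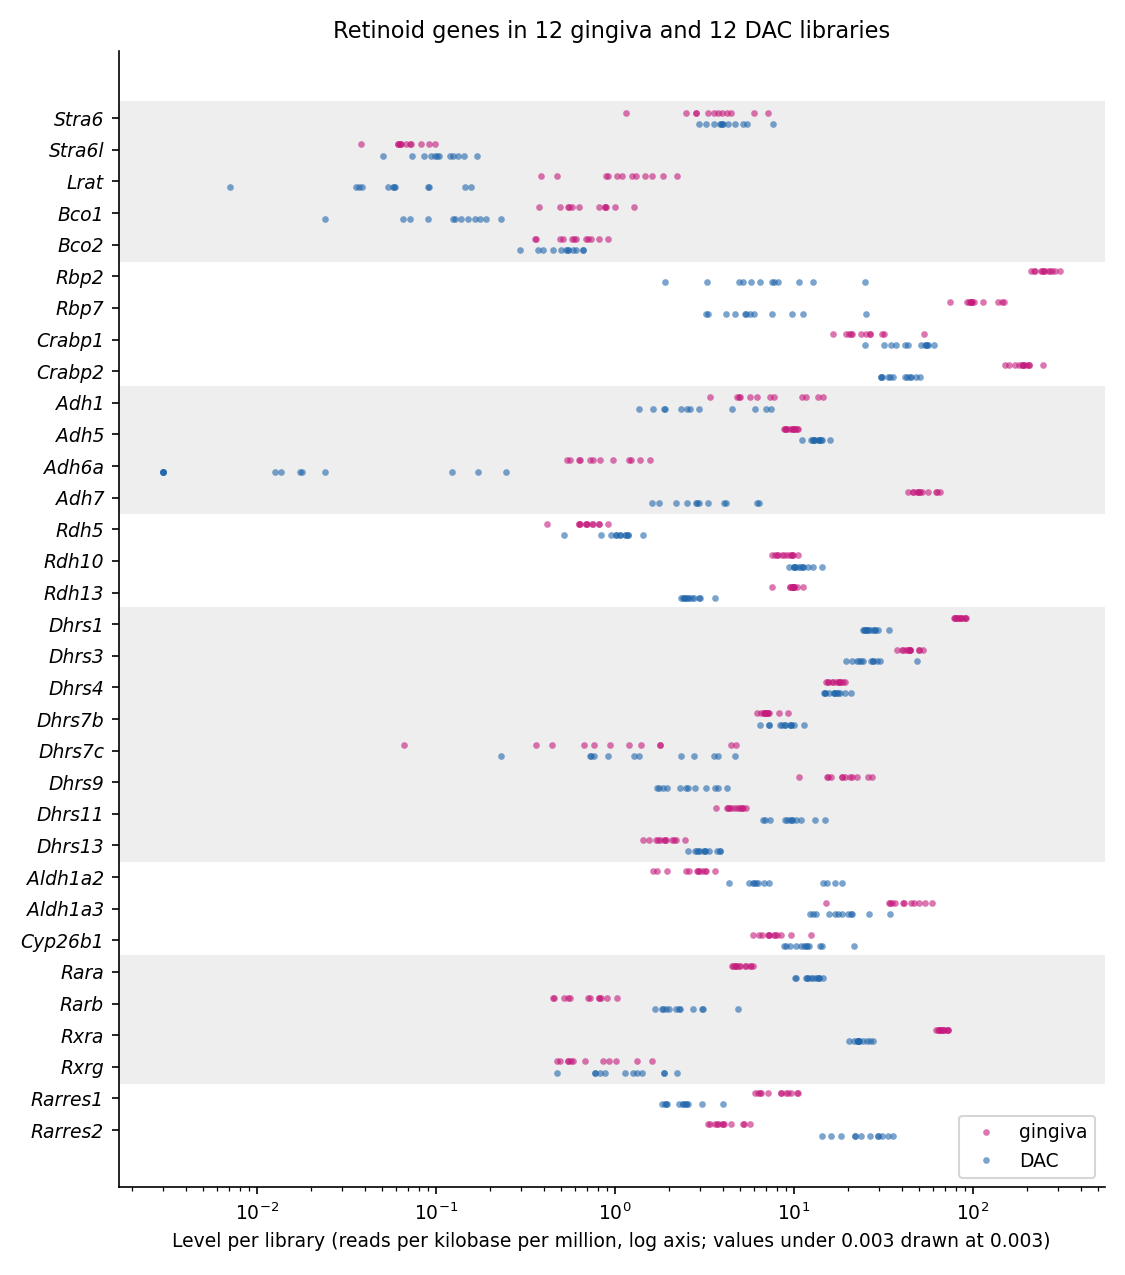
Level of the tested retinoid genes reported here, per library (points; 12 gingiva and 12 DAC libraries) in RPKM on a log axis, grouped by role with shaded bands. Rbp2, Rbp7, Adh7 and Lrat separate the tissues with gingiva higher, and Rara, Rarb and Rarres2 separate them with the DAC higher.

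Between estradiol-treated and untreated mice a single retinoid gene passed the test, in the 2 DAC comparisons. Aldh1a2, which encodes retinaldehyde dehydrogenase 2, the enzyme known for making most retinoic acid in the embryo and in many mesenchymal tissues, was at 42.8, 39.6, 37.9 and 33.5 CPM in the 4 DAC libraries of OVXE2. The OVX libraries were at 13.9, 14.4, 10.5 and 16.03 CPM and the Sham libraries at 14.2, 17.3, 13.6 and 15.2 CPM. All 4 OVXE2 values lay above all 8 others, while OVX and Sham values overlapped. Aldh1a2 was 2.80-fold higher in OVXE2 (38.5 ± 3.90 CPM, SD, n = 4) than in OVX (13.7 ± 2.30). On the log2 scale this was 1.49 ± 0.13 (SE), and edgeR's adjusted p was 0.000143. Against Sham (15.1 ± 1.62 CPM) it was 2.55-fold higher, a log2 change of 1.35 ± 0.13 with an edgeR adjusted p of 0.000601. The comparisons share the OVXE2 libraries and are not independent. Of all genes tested, 2.13% passed between OVXE2 and OVX in the DAC (0.676% upward), and 1.05% between OVXE2 and Sham (0.389% upward). With 33 retinoid genes tested, the single call is near the share among all genes. Values did not overlap for 1 of 33 between OVXE2 and OVX (Aldh1a2), against 6.73% of all genes.

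Aldh1a2 lies at chr9:71215789-71296243 on the plus strand (GRCm38). The 250 bases before its RefSeq start site, chr9:71215539-71215788 (GRCm38.p6, plus strand), are shown because this is the gene that rose.
Aldh1a2: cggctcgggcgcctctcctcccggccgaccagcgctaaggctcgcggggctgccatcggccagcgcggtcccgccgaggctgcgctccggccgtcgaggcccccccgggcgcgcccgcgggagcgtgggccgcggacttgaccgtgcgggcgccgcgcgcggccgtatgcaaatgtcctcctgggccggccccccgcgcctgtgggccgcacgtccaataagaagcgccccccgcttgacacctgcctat
No letter is in capitals, since none of the motifs searched was found in the 300-base window of 250 bases before to 50 after the start. The motifs, sought on both strands, were the nuclear receptor hexamer AGGTCA, its direct repeats, and the estrogen response element. The repeats are the hexamer followed by itself after 1 base (DR1), 2 bases (DR2) or 5 bases (DR5), so each also counts as a hexamer. The estrogen response element searched was GGTCA followed after 3 bases by TGACC. The window is rich in GC, at 78.0% with 50 CpG dinucleotides, against medians of 52.67% and 7 over 32851 windows. The hexamer alone occurs in 16.3% of all such windows, and the estrogen response element in 0.0700%.

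In gingiva Aldh1a2 was lower and its groups overlapped. The Sham libraries were at 3.55, 6.43, 5.38 and 6.86 CPM, OVX at 3.67, 4.24, 6.28 and 6.28, and OVXE2 at 6.91, 6.64, 5.54 and 7.80. The log2 change between OVXE2 and OVX in gingiva was 0.39 ± 0.23 with an edgeR adjusted p of 0.444, and that between OVXE2 and Sham 0.27 ± 0.22 with 0.816. The DAC and gingival effects of OVXE2 against OVX differed by 1.10 ± 0.27 on the log2 scale, which missed the threshold in edgeR (adjusted p = 0.123) and in limma-voom and passed in DESeq2 (adjusted p = 0.0135). Against Sham the difference of effects was 1.11 ± 0.27 (edgeR adjusted p = 0.163, DESeq2 0.0191). A difference between the tissues in the response of Aldh1a2 therefore rests on the tool. No other retinoid gene passed in these tests of the difference by edgeR, DESeq2 or limma-voom, against 0.19% and 0.0633% of all genes by edgeR. An unadjusted edgeR p under 0.05 was seen for 6 of 34 retinoid genes in the first and 5 in the second, and for 8.81% and 7.81% of all genes. The 34 include Adh6a, which passed the filter on low counts only through gingiva. Adh6a is among the 5 in the second, and its place there is no evidence of a difference. For OVX against Sham the tissue difference passed for 0 retinoid genes by edgeR (4 at an unadjusted p under 0.05, with 8.53% of all genes), DESeq2 and limma-voom, and for 0% of all genes.

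Marker genes of several cell types moved in the same DAC libraries. Endothelial markers (5 listed of 6) took 0.0707 to 0.0797% of counts in OVXE2, 0.0449 to 0.0612% in OVX and 0.0585 to 0.0657% in Sham. Smooth muscle and pericyte markers (3 listed of 6) took 0.0844 to 0.0996% against 0.0600 to 0.0736% in OVX and 0.0671 to 0.0766% in Sham. Osteoblast and osteocyte markers took 0.768 to 0.894% in OVXE2 against 0.423 to 0.668% in OVX and 0.578 to 0.709% in Sham. The medians of these lists were 1.46, 1.34 and 1.32 times those in OVX, where Aldh1a2 was 2.80 times as high. Fibroblast markers (4 listed of 5) took 2.81 to 3.06% in OVXE2 and 2.51 to 3.41% in OVX, which overlap. Osteoclast markers (5 listed of 5) were higher than in OVX, at 0.981 to 1.11% against 0.533 to 0.901%, but overlapped with Sham at 0.860 to 1.06%. B cell precursor markers (6 listed of 8) were lower, at 0.00184 to 0.00279% against 0.0136 to 0.0189% in OVX and 0.00638 to 0.0105% in Sham. The part of these cell types in the Aldh1a2 difference was not tested. Without the 4 libraries rich in brain RNA, which include the library rich in nasal RNA, the log2 change against OVX was 1.48 ± 0.17 and that against Sham 1.45 ± 0.19.

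The enzymes on either side of retinoic acid did not pass with Aldh1a2. Cyp26b1, which degrades retinoic acid, was at 51.8, 62.7, 68.3 and 64.7 CPM in OVXE2, within the range of 50.0, 60.2, 80.2 and 80.8 CPM in OVX. Aldh1a3, the other listed retinaldehyde dehydrogenase, was at 94.4, 83.9, 61.9 and 161 CPM in the DAC of OVXE2 and at 99.8, 74.6, 63.4 and 81.8 CPM in OVX, and the groups overlapped. Per length, the ratio of Aldh1a2 to Cyp26b1 was 1.22 to 1.95 in the 4 OVXE2 libraries of the DAC, 0.308 to 0.679 in OVX and 0.272 to 0.712 in Sham. Aldh1a2 was picked because it passed, so the gap in this ratio follows from that choice and is no further evidence. The ratio of Aldh1a2 to Aldh1a3 was 0.423 to 1.25 in OVXE2, against 0.284 to 0.400 in OVX and 0.214 to 0.444 in Sham, so the OVXE2 and Sham values overlapped. In gingiva the ratio of Aldh1a2 to Aldh1a3 was 0.0276 to 0.164 over all 12 libraries.

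**Figure D2:**
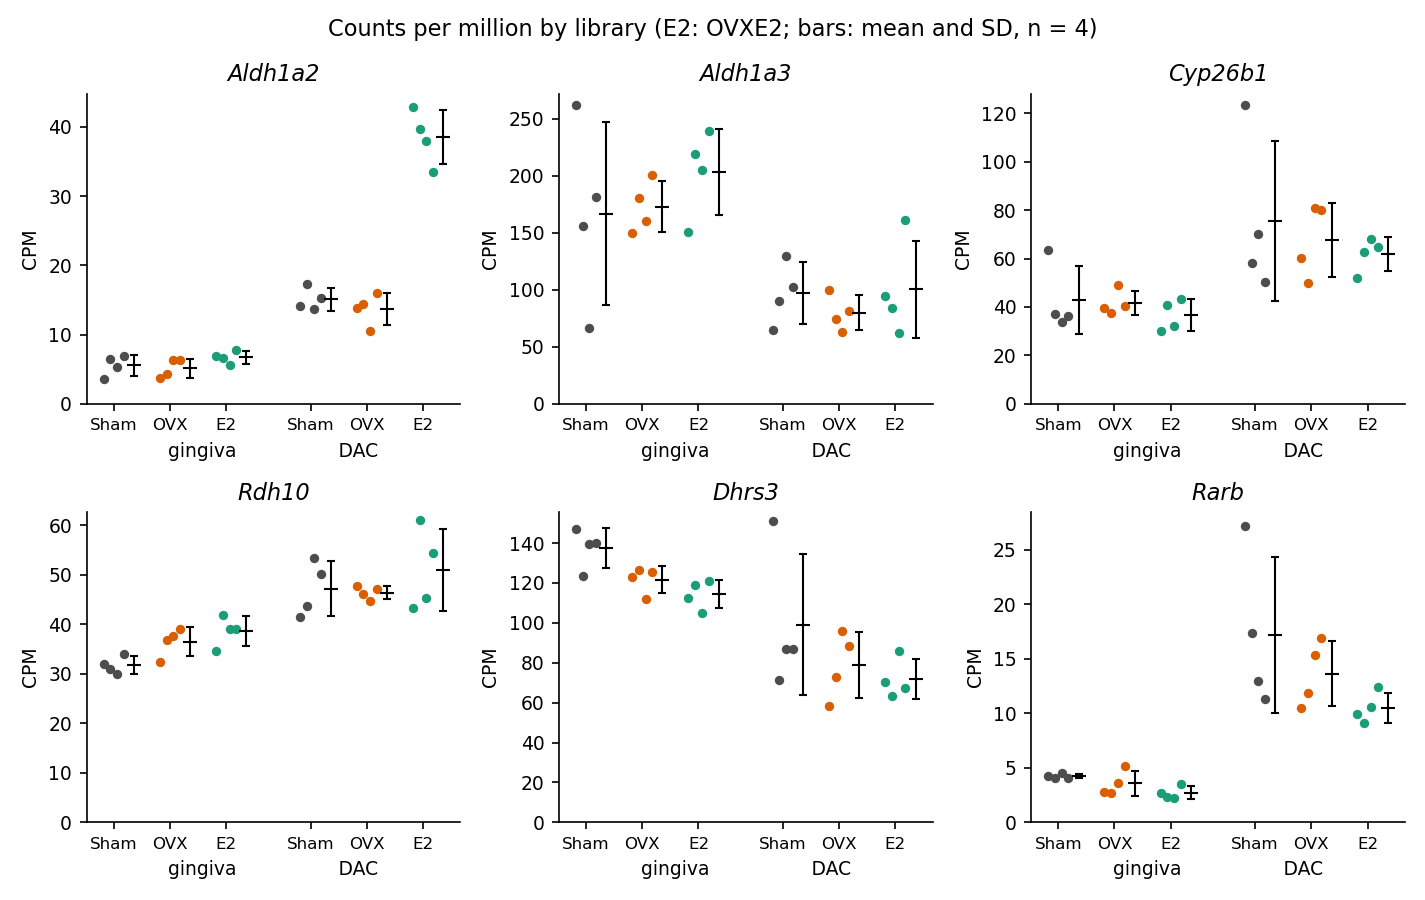
Counts-per-million (CPM) of 6 retinoid genes in each library (points), by tissue and group, with the mean and SD of each group of 4 (bars). Only Aldh1a2 in the DAC of OVXE2 (33.5 to 42.8 CPM) stands clear of every other group of its tissue.

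Between OVX and Sham no retinoid gene passed in either tissue, where 0% of all genes passed by edgeR. By edgeR 5 of 34 retinoid genes in gingiva and 2 of 33 in the DAC had an unadjusted p under 0.05, where 12.1% and 3.21% of all genes did, and DESeq2 and limma-voom called 0 as well. The gingival genes were Adh1, Crabp1, Dhrs3, Rara and Rdh10. Adh1, a retinol-oxidising alcohol dehydrogenase, was at 10.8 ± 2.60 CPM in OVX and 20.5 ± 8.82 in Sham, with values that overlapped. Rara, the receptor RARα, was at 22.3, 24.7, 22.02 and 20.7 CPM in OVX and 19.5, 19.8, 19.03 and 19.8 CPM in Sham (edgeR adjusted p = 0.406). Rara was the only retinoid gene of gingiva whose OVX and Sham values did not overlap, and 5.74% of all genes were of that kind. The DAC genes were Adh7 and Crabp2, and 0 of 33 retinoid genes there had values that did not overlap, against 2.92% of all genes. The log2 changes of the genes that did not pass lay between -0.92 (Adh1) and 0.66 (Crabp1) in gingiva, and between -0.46 (Rbp7) and 0.88 (Adh7) in the DAC. Their median SE was 0.19 in gingiva and 0.26 in the DAC.

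In gingiva no retinoid gene passed between OVXE2 and Sham. Rdh10 and Dhrs3, which convert retinol and retinal in opposite directions, had non-overlapping values and the smallest p-values, and are given in full. Rdh10, the main enzyme that oxidises retinol to retinal, lies at chr1:16105774-16133734 (plus strand). It was at 34.6, 41.8, 39.1 and 39.0 CPM in OVXE2, 32.3, 36.9, 37.6 and 39.1 CPM in OVX, and 32.0, 31.1, 30.0 and 34.1 CPM in Sham. Dhrs3, which reduces retinal back to retinol and acts in a complex with RDH10, lies at chr4:144892827-144928209 (plus strand). It was at 113, 119, 105 and 121 CPM in OVXE2, 123, 126, 112 and 125 CPM in OVX, and 147, 123, 139 and 140.2 CPM in Sham. The OVXE2 values of Rdh10 all lay above those of Sham, and the OVXE2 values of Dhrs3 all lay below them, while OVX overlapped with both other groups for each gene. The log2 change was 0.28 ± 0.07 for Rdh10 (unadjusted p = 0.00249) and -0.27 ± 0.07 for Dhrs3 (unadjusted p = 0.00165), and both had an edgeR adjusted p of 0.630. Over the 20 alternatives run, the log2 change stayed between 0.24 and 0.33 for Rdh10 and between -0.31 and -0.23 for Dhrs3, with adjusted p from 0.156 to 0.980 and from 0.0847 to 0.980. Per length, the ratio of Rdh10 to Dhrs3 was 0.216 to 0.262 in gingiva of OVXE2, 0.185 to 0.237 in OVX and 0.151 to 0.177 in Sham. Both genes were picked for values apart from Sham in opposite directions, so the gap in this ratio follows from that choice and is no further evidence. In the DAC the same ratio overlapped between all groups, at 0.370 to 0.677, 0.328 to 0.576 and 0.193 to 0.433.

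In each estradiol comparison of gingiva 6 of 34 retinoid genes had an unadjusted edgeR p under 0.05, where 13.9% of all genes did against OVX and 7.41% against Sham, and 0 passed by edgeR, DESeq2 or limma-voom, as for 0% of all genes by edgeR. For OVXE2 against Sham these were Adh7, Bco1, Dhrs3, Dhrs7c, Rarb and Rdh10, and for OVXE2 against OVX they were Adh1, Bco1, Dhrs7b, Dhrs7c, Rarres2 and Rbp7. Values did not overlap for 3 of 34 against Sham (Dhrs3, Rarb and Rdh10) and 3 of 34 against OVX (Bco1, Dhrs7b and Rbp7), where 4.91% and 6.08% of all genes were of that kind. Rarb, the RARβ receptor gene that retinoic acid itself is known to induce, was at 2.73, 2.29, 2.26 and 3.54 CPM in OVXE2 and at 4.23, 4.10, 4.53 and 4.08 CPM in Sham (edgeR adjusted p = 0.635). In the DAC Rarb was at 10.5 ± 1.40 CPM in OVXE2 and 17.2 ± 7.14 in Sham, with overlapping values and an adjusted p of 0.379. Bco1, the enzyme that cuts beta-carotene into retinal, was at 0.910, 1.33, 1.40 and 1.35 CPM in gingiva of OVXE2, below all OVX values of 2.16, 2.44, 2.12 and 1.54 (log2 change -0.72 ± 0.27, edgeR adjusted p = 0.311). The Sham values of Bco1, 1.21 to 3.08 CPM, overlapped with both.

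Dhrs7c, the striated muscle member, had the largest change in gingiva without passing. It was at 7.94, 3.22, 2.13 and 8.48 CPM in OVXE2, against 0.647, 1.22, 3.21 and 1.37 in OVX and 0.120, 1.69, 0.800 and 2.50 in Sham, and the groups overlapped. The log2 change against OVX was 1.75 ± 0.70 (edgeR adjusted p = 0.327). Skeletal muscle markers (5 listed of 5) took 0.0988 to 0.331% of counts in gingiva of OVXE2, 0.0411 to 0.142% in OVX and 0.0187 to 0.123% in Sham, and the 2 libraries highest in Dhrs7c, OVXE2 replicates 1 and 4, were also highest in these markers. The part of muscle in the Dhrs7c values was not tested.

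In the DAC the comparison of OVXE2 with OVX left 32 of 33 retinoid genes below the threshold, with log2 changes from -0.58 (Dhrs7c) to 1.25 (Rbp7), and 29 of the 32 within 0.5 of no change. Besides Aldh1a2, Crabp2, Rbp7 and Rdh13 had an unadjusted edgeR p under 0.05, as did 1366 of all 13617 genes. Rbp7, a retinol carrier, was at 18.5, 4.17, 8.77 and 3.05 CPM in OVXE2 and at 2.44, 3.48, 4.62 and 3.96 CPM in OVX, with overlapping values and an edgeR adjusted p of 0.421. Its highest value was that of OVXE2 replicate 1, the DAC library with the highest share of Krt13 and Krt14, 0.546% of counts. Against Sham, Rarb and Rxra joined Aldh1a2 under an unadjusted p of 0.05, with 8.77% of all genes. Rxra, the most abundant receptor of the set, was at 153, 149, 135 and 143 CPM in OVXE2 and at 133, 117, 133 and 131 CPM in Sham (log2 change 0.18 ± 0.07, edgeR adjusted p = 0.411). Rxra and Aldh1a2 were the 2 of 33 retinoid genes whose OVXE2 and Sham values did not overlap, against 5.41% of all genes.

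**Figure D3:**
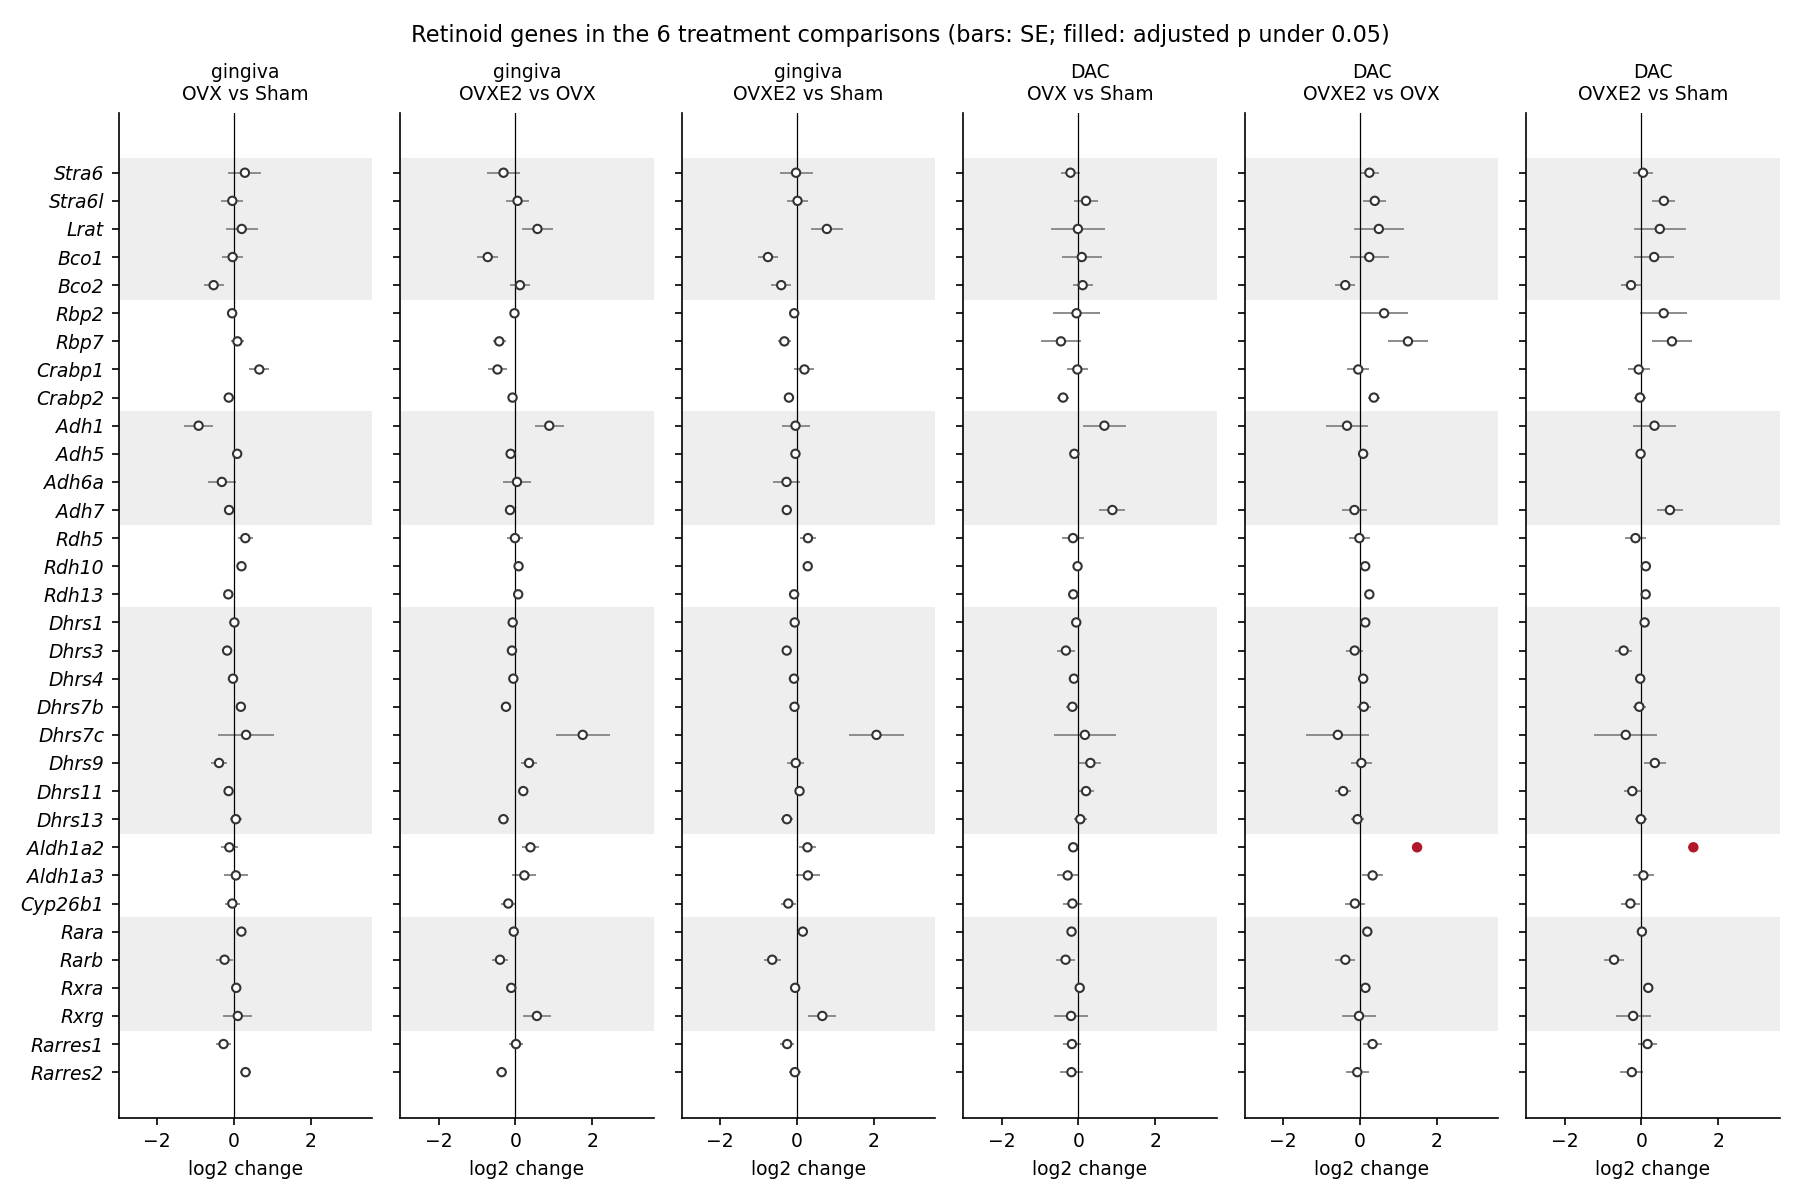
Log2 change (points) with its standard error (bars) of the tested retinoid genes reported here in the 6 treatment comparisons, grouped by role; filled points passed at an adjusted p under 0.05. The only filled points are those of Aldh1a2 in the DAC, at 1.49 against OVX and 1.35 against Sham.

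The tissues differed far more than the treatments, and the retinoid genes split between them. Adh6a passed the filter on low counts only through gingiva and is left out of these counts. Of the other 33 genes, 28 passed between DAC and gingiva in Sham, 14 higher in the DAC and 14 higher in gingiva, where 75.1% of all genes passed (39.7% higher in the DAC and 35.4% in gingiva). In OVX 21 passed (8 and 13), where 72.4% of all genes did (38.1% and 34.2%). In OVXE2 27 passed (13 and 14), where 72.1% of all genes did (38% and 34.1%). The retinoid counts are thus not far from the share among genes in general, but the sets are not alike. The shares over all genes include genes that passed the filter on low counts through a single tissue, which the retinoid counts leave out. The 13 genes higher in gingiva in every group were Adh7, Aldh1a3, Bco1, Crabp2, Dhrs1, Dhrs3, Dhrs9, Lrat, Rarres1, Rbp2, Rbp7, Rdh13 and Rxra. The 8 higher in the DAC in every group were Adh5, Aldh1a2, Cyp26b1, Dhrs11, Dhrs13, Rara, Rarb and Rarres2. The share of all genes that passed the same way in every group was not counted. The counts of 13 and 8 are therefore not read as a lean of the retinoid genes to gingiva. Bco2, Dhrs4, Dhrs7c and Stra6 passed in no group, and 0 genes passed in opposite directions.

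**Figure D4:**
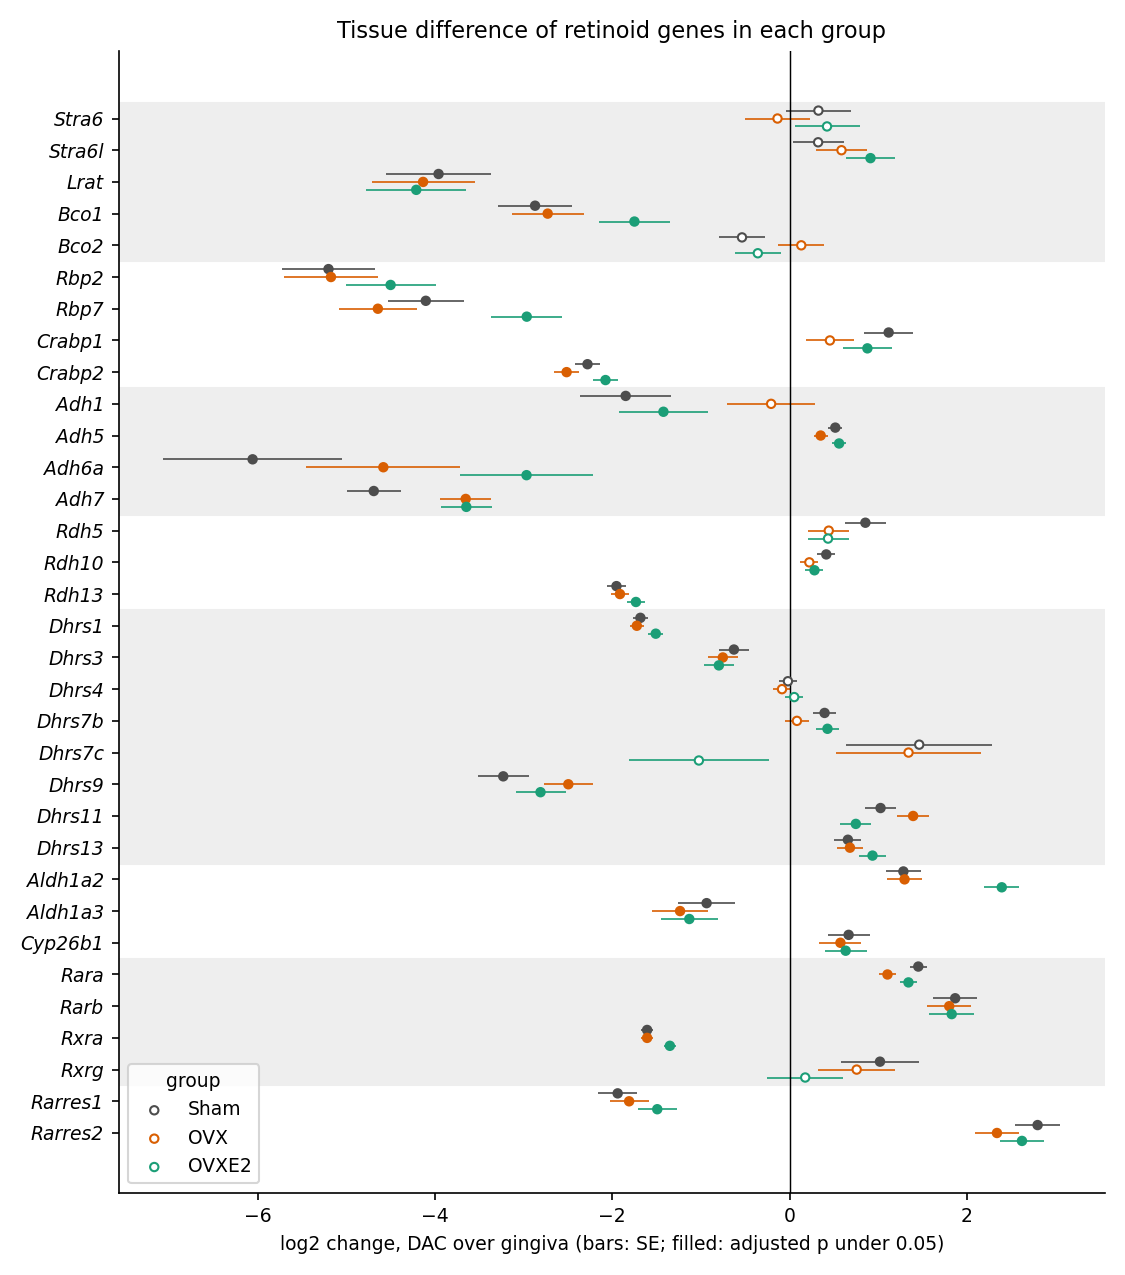
Log2 change between DAC and gingiva (points) with its standard error (bars) of the tested retinoid genes reported here in Sham, OVX and OVXE2; filled points passed at an adjusted p under 0.05. Rbp2, Adh7, Rbp7 and Lrat lie far to the gingival side in all groups, and Rarres2 farthest to the DAC side. Adh6a is drawn although it passed the filter only through gingiva, and its filled points are not counted as calls.

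Among the genes of uptake, storage and carotenoid cleavage, 2 of 5 passed in Sham, both higher in gingiva. Levels in the comparison of tissues are CPM with all 24 libraries scaled together. Lrat, which esterifies retinol for storage, was at 6.66, 8.64, 2.06 and 2.54 CPM in gingiva and 0.190, 0.486, 0.317 and 0.307 CPM in the DAC of Sham mice, 15.6-fold higher in gingiva (log2 change, DAC over gingiva, -3.96 ± 0.59, edgeR adjusted p = 3.83e-06). Bco1 was at 2.25, 1.26, 2.06 and 3.23 CPM in gingiva and at 0.418, 0.0608, 0.181 and 0.483 CPM in the DAC, 7.32-fold higher in gingiva (-2.87 ± 0.41, edgeR adjusted p = 2.40e-06). For both genes the lowest gingival library was above the highest DAC library. Stra6, the retinol uptake receptor, did not pass, at 26.0 ± 6.55 CPM in the DAC and 20.7 ± 12.03 in gingiva of Sham mice. Stra6 overlaps another annotated gene, Gm16131, on the same strand, so reads from the shared stretch are uncertain. The same holds for Rbp2 (Gm37113), Bco1 (Gm20694), Rdh13 (Gm24605) and Rara (Gm22061).

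The cellular carriers were divided, with Rbp2, Rbp7 and Crabp2 higher in gingiva and Crabp1 higher in the DAC of Sham mice. Rbp2, known as the intestinal retinol carrier, was at 267, 241, 275 and 215 CPM in gingiva and 6.23, 4.98, 5.53 and 10.3 CPM in the DAC of Sham, 36.8-fold higher in gingiva (log2 change -5.20 ± 0.53, edgeR adjusted p = 1.71e-08). Rbp7 was at 105, 66.6, 72.5 and 81.5 CPM in gingiva and 6.99, 2.31, 3.90 and 5.40 CPM in the DAC, 17.2-fold higher in gingiva (-4.10 ± 0.43, edgeR adjusted p = 2.59e-08). No DAC library of Sham came near a gingival one for either gene. Per length, the ratio of Crabp1 to Crabp2, the carriers of retinoic acid, spanned 0.0668 to 0.260 over gingiva, against 0.816 to 1.81 over the DAC. These ranges lay apart. CRABP2 is known for handing retinoic acid to the receptors.

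The promoters of 2 gingiva-rich genes held the nuclear receptor hexamer and are printed as examples of where it lies, since receptors of the RXR group are known to bind it, mostly as repeats; capitals mark the hexamer, here on the minus strand and so read as TGACCT. The first is chr9:98490287-98490536 and the second chr8:117095615-117095864 (GRCm38.p6, plus strand), in each case the 250 bases before the RefSeq start.
Rbp2: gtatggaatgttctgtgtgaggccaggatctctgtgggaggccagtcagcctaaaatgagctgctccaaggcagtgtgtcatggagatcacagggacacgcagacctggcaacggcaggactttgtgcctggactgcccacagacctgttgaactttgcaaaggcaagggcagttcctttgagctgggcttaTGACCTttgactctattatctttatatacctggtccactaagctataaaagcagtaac
Bco1: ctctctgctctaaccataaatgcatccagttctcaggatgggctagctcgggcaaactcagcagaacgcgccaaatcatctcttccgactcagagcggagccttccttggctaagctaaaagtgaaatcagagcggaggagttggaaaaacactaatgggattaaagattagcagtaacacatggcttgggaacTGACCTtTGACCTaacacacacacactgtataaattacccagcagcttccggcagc
In Bco1 the hexamers begin 56 and 49 bases before the start and form a DR1 repeat, a motif found in 13 of 32851 windows (0.0396%). In Rbp2 the hexamer begins 58 bases before the start. Windows were given by RefSeq for 36 of the 46 genes. The hexamer was in 11 of these, against 18.1% of all 27025 genes with a window, and DR2, DR5 and the estrogen response element were in 0 of 36. The windows of Adh7, Rbp7 and Lrat, also far higher in gingiva, held none. The 11 genes with the hexamer include Dhrs9 and Rxra, higher in gingiva, and Rara, higher in the DAC. Adh4, Rdh7, Rdh9, Rdh16 and Rdh16f2 are also among the 11, and no fit included them. These Rdh genes lie close together on chromosome 10. The count of 11 of 36 is therefore not a share among expressed genes. These are matches of letters and not measured binding.

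Of the alcohol dehydrogenases tested in both tissues, Adh1 and Adh7 were higher in gingiva and Adh5 was higher in the DAC of Sham mice. Adh7, the class IV enzyme of stratified epithelia with high activity on retinol, was at 196, 192, 248 and 236 CPM in gingiva and 11.1, 6.14, 6.70 and 9.62 CPM in the DAC, 25.8-fold higher in gingiva (log2 change -4.69 ± 0.30, edgeR adjusted p = 1.31e-11). Adh6a was at 3.04, 2.47, 3.51 and 1.62 CPM in gingiva of Sham, while the DAC libraries held 3 counts together. The ratio of gingiva to DAC for Adh6a was 75.8 with an exact 95% counting interval of 25.6 to 370.05, which covers counting error only. No test is given for Adh6a, since it passed the filter on low counts only through gingiva, where it is high. Adh5 differed much less, at 73.7 ± 4.07 CPM in the DAC and 51.5 ± 3.67 in gingiva, with no overlap.

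The retinol and short-chain dehydrogenases were divided between the tissues. Of the 3 Rdh genes tested, Rdh10 and Rdh5 were higher in the DAC and Rdh13 in gingiva of Sham mice. Rdh13, a mitochondrial enzyme, was at 67.7 ± 4.23 CPM in gingiva and 17.5 ± 1.44 in the DAC, 3.87-fold. Rdh5 overlaps Bloc1s1 on the same strand, so its counts are uncertain. Of 8 other short-chain dehydrogenases tested, Dhrs1, Dhrs3 and Dhrs9 were higher in gingiva, Dhrs7b, Dhrs11 and Dhrs13 were higher in the DAC, and Dhrs4 and Dhrs7c did not pass. Dhrs9, a retinol dehydrogenase of epithelia, was at 79.7, 90.5, 111 and 79.4 CPM in gingiva and 8.32, 11.97, 7.38 and 10.9 CPM in the DAC of Sham, 9.38-fold higher in gingiva (log2 change -3.23 ± 0.29, edgeR adjusted p = 2.22e-09). Dhrs4 was level between the tissues, at 30.4 ± 3.32 CPM in the DAC and 30.7 ± 2.39 in gingiva, with a log2 difference of -0.02 ± 0.10.

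For the synthesis and breakdown of retinoic acid, the 2 synthetic enzymes listed differed between the tissues in opposite directions. Aldh1a3, known from epithelia, was at 174 ± 83.7 CPM in gingiva and 91.1 ± 24.9 in the DAC of Sham, with overlapping values (log2 change -0.94 ± 0.32, edgeR adjusted p = 0.0117). Aldh1a2 was at 5.81 ± 1.55 CPM in gingiva and 14.2 ± 1.61 in the DAC (1.28 ± 0.20, edgeR adjusted p = 4.74e-06). In OVXE2 the Aldh1a2 levels were 7.06 ± 0.961 CPM in gingiva and 37.1 ± 4.17 in the DAC, a log2 difference of 2.39 ± 0.20. Cyp26b1 was at 70.9 ± 31.0 CPM in the DAC and 44.7 ± 14.5 in gingiva of Sham, with overlapping values (0.67 ± 0.24, edgeR adjusted p = 0.0151).

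The 4 listed receptor genes, Rara, Rarb, Rxra and Rxrg, also differed in their mix. Rarg and Rxrb are not among the genes listed in the count tables, so the total of RAR or RXR RNA in either tissue is not known. Rxra was at 367 ± 19.1 CPM in gingiva and 120.5 ± 6.51 in the DAC of Sham (3.05-fold), whereas Rara was at 20.4 ± 0.386 CPM in gingiva and 55.9 ± 3.99 in the DAC (2.74-fold the other way). Per length, the ratio of Rxra to Rara was 11.2 to 15.3 over the 12 gingival libraries and 1.65 to 2.40 over the 12 DAC libraries, with a wide gap between the tissues. Rarb was 3.65-fold higher in the DAC, at 16.2 ± 6.75 CPM against 4.43 ± 0.217. Rxrg was low in both tissues, at 3.08 ± 1.42 CPM in the DAC and 1.505 ± 0.568 in gingiva, with overlapping values and an edgeR adjusted p of 0.0416. Of the genes named as retinoic acid receptor responders, Rarres2, which encodes the chemoattractant chemerin, was at 71.0, 48.4, 83.0 and 88.8 CPM in the DAC and 9.90, 10.8, 10.5 and 10.7 CPM in gingiva of Sham. Rarres2 was thus 6.96-fold higher in the DAC (log2 change 2.80 ± 0.25, edgeR adjusted p = 2.24e-09), the widest difference in that direction. Rarres1 went the other way, 3.83-fold higher in gingiva.

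Epithelial keratin RNA was far lower in the DAC than in gingiva, and gingiva-rich retinoid genes were lower there to differing degrees. The DAC median of Krt13 and Krt14 was 2.51% of the gingival median, and that of Rbp2 was 2.81%, of Lrat 4.96%, of Rbp7 5.66% and of Adh7 5.75%. For other gingiva-rich genes the DAC kept a larger share, 13.3% for Dhrs9, 18.5% for Bco1, 20.2% for Crabp2, 34.2% for Rxra and 44.3% for Aldh1a3. Within the DAC, OVXE2 replicate 1 was highest in the keratins and also in Rbp2 (24.5 CPM, DAC scaling) and Rbp7 (18.5 CPM), while for Adh7 the highest library was OVX replicate 4 (25.1 CPM), followed by OVXE2 replicate 1 (23.9 CPM). The part of epithelium left on the DAC in these values was not tested.

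**Figure D5:**
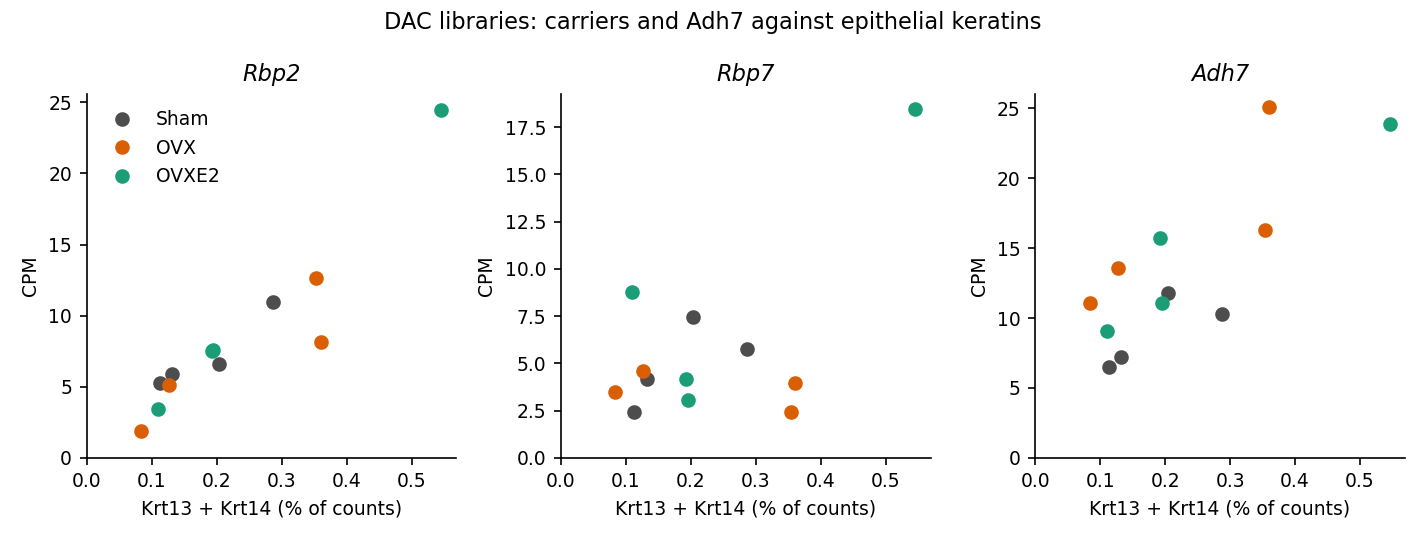
Counts-per-million (CPM) of Rbp2, Rbp7 and Adh7 in each of the 12 DAC libraries against the share of counts on Krt13 and Krt14 (percent), coloured by group. The library with the most keratin (0.546%, OVXE2 replicate 1) has the highest Rbp2 and Rbp7.

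Genes around the pathway were read from 3 further lists. Of 16 listed genes for storage, transport and oxidation, 10 were tested in gingiva and 13 in the DAC, and 0 passed in the 6 treatment comparisons. Retsat, which saturates retinol, had the smallest p of that list in the DAC between OVXE2 and OVX, a log2 change of 0.28 ± 0.11 with overlapping values (edgeR adjusted p = 0.338). All 12 listed coregulators and RXR partners were tested and 0 passed. Zfp423, a zinc finger cofactor of the receptors, had a log2 change of 0.20 ± 0.11 between OVXE2 and OVX in the DAC (edgeR adjusted p = 0.671). Of 20 listed genes known to respond to retinoic acid, 12 were tested in the DAC, and 1 fell and 0 rose with estradiol, where 1.45% of all genes fell against OVX and 0.661% against Sham. That gene was Cebpe, a transcription factor of late granulocyte maturation, at 7.06 ± 1.91 CPM in OVXE2 and 21.3 ± 4.45 in OVX (log2 change -1.60 ± 0.26, edgeR adjusted p = 0.00708). Against Sham (20.6 ± 6.22 CPM) the log2 change of Cebpe was -1.54 ± 0.26 with an adjusted p of 0.0159, a call lost in 7 of 21 alternatives, among them those without DAC Sham replicate 1 (0.0598) and without OVXE2 replicate 1 (0.0580), 2 (0.0652) or 4 (0.0605). Immature neutrophil markers (7 listed of 7) took 0.0545 to 0.0796% of counts in OVXE2, 0.173 to 0.226% in OVX and 0.107 to 0.227% in Sham. These shares were not tested, nor was the part of such cells in the Cebpe difference. The median log2 change of the 12 responsive genes between OVXE2 and OVX in the DAC was -0.02, against 0.02 over all genes and 0.10 over the 33 retinoid genes. In gingiva 10 of the responsive genes were tested and 0 passed.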

How the data were processed

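Per the labels' protocols, RNA with an integrity number above 7 was sequenced as poly(A) libraries, paired-end. The submitters' processing notes name fastp, STAR and DESeq2 and the builds GRCm38 and mm10 without versions or the annotation release, which the sources used here do not give. The authors deposited 1 table per library of raw read counts per gene, with counts for each strand setting. The column holding most reads was used, and the other strand held 3.38 to 9.03% of the gene counts of both strands together. Rows that name no gene stayed out of library sizes: unmapped 0.495 to 1.04%, multimapping 6.40 to 13.5%, no feature 19.8 to 32.2% and ambiguous 0.872 to 1.19% of reads. Gene names, lengths and coordinates came from GENCODE M21, which names 38186 of 38321 IDs.

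Genes passing filterByExpr were fitted with edgeR 4.0.16 (R 4.3.3), quasi-likelihood, TMM and robust, with Benjamini-Hochberg adjustment over all genes of a fit: 12680 in gingiva and 13617 in the DAC, 12 libraries each, and 14209 over 24 libraries for tissue comparisons and differences of effects. Standard errors are the log2 change over the square root of F. Alternatives were other size factors, no filter, DESeq2 1.42.0, limma-voom (limma 3.58.1), counts of either strand, a strand covariate, a replicate block, 2 groups alone, each library left out, and the DAC without its brain-rich libraries. The members and lists were chosen with earlier results of these data known. Full values are given for genes past the test in a treatment comparison or tissue difference, genes with non-overlapping groups and an unadjusted p under 0.01, and the 8 largest tissue differences in Sham; Rarb, Rara, Rxra, Bco1, Dhrs7c and Rbp7 were added for their treatment values, and other genes for their role. On simulated counts for OVXE2 against OVX, the fit recovered 77.6% of genes changed 2-fold in gingiva (12536 genes) and 55.2% in the DAC (13421 genes). For genes changed 1.5-fold it recovered 40.9% and 15.4%. The planted changes reached 4-fold and many passed, whereas no gene passed in the real gingival comparison, so recovery there may be lower. No libraries were copies of each other. A few single-gene values are not reported here, though the genes stay in the counts.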

Additional observations from a re-analysis of the deposited data

Results flagged for a closer look

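In 12 of 190 groups of 4 libraries, 1 library lay farther from the other 3 than Dixon's 95% limit. Chance gives about 1 in 20 groups. Each value is in CPM.

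Among the carriers, Crabp2 was at 312 in gingiva Sham replicate 3 (others 241 to 244), and Rbp7 at 50.9 in gingiva OVXE2 replicate 2 (65 to 66.3). Among the dehydrogenases, Adh6a was at 3.77 in gingiva OVXE2 replicate 1 (1.35 to 1.75), and Adh7 at 229 in gingiva OVX replicate 4 (175 to 181). Rdh13 was at 48.2 in gingiva OVX replicate 2 (61.7 to 62.1), Dhrs1 at 80.8 in DAC OVX replicate 4 (72.3 to 73.5), and Dhrs7b at 25.5 in DAC Sham replicate 2 (34 to 35.5).

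Of the genes of uptake and carotenoid cleavage, Stra6 was at 45.1 in DAC OVXE2 replicate 4 (21.5 to 24.4), Bco1 at 0.91 in gingiva OVXE2 replicate 1 (1.33 to 1.4), and Bco2 at 1.51 in DAC OVX replicate 3 (1.16 to 1.2). Cyp26b1 was at 63.6 in gingiva Sham replicate 1 (33.7 to 37.3). Rxra was at 117 in DAC Sham replicate 2 (131 to 133), which is one of the brain-rich libraries. The difference of Rxra between OVXE2 and Sham in the DAC includes that library and did not pass the test.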

How the results depend on the processing

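In this section the tissue counts include Adh6a, which makes them 29 in Sham, 22 in OVX and 28 in OVXE2 by edgeR with all libraries. Counts of retinoid genes past the threshold stayed within 1.5 times the count of the reported edgeR fit in 307 of 309 alternatives. In DESeq2 both tissue differences of the estradiol effect, against OVX and against Sham, rose from 0 to 1 gene, Aldh1a2 each time (1.11, adjusted p = 0.0135, and 1.10, adjusted p = 0.0191); the cause was not tested. Aldh1a2 in the DAC passed in all 21 alternatives, at 1.38 to 1.57 against OVX and 1.30 to 1.45 against Sham. Of 434 single-gene values, 425 kept their side of the threshold and 0 reversed; 7 lost calls were Cebpe against Sham, as with a strand covariate (-1.43), with only the 2 groups (-1.55) and without the brain-rich libraries (-1.50). With each library left out, tissue counts were 27 to 29 in Sham, 21 to 24 in OVX and 26 to 29 in OVXE2. Over all genes, DESeq2 called 598 and 340 in the DAC against OVX and Sham where edgeR called 290 and 143, 44, 91 and 8 in gingiva where edgeR called 0, 10 for OVX against Sham in the DAC where edgeR called 0, and 114 and 70 tissue differences where edgeR called 27 and 9. The labels do not say whether same-numbered libraries come from one mouse, and the tissue comparisons treat them as independent. The correlations of same-numbered libraries were -0.488 to 0.272 for gingiva, and for the DAC -0.328 to 0.380. Over all pairs 16 of 60 correlated best with their own number, but most of these join different groups, which cannot share a mouse. Between gingiva and DAC of the same group the correlations were -0.299 to 0.291. In Sham, replicates 1, 2 and 4 (0.271, 0.291 and 0.0869) correlated best with their own number, and replicate 3 (-0.118) did not. No replicate of OVX or OVXE2 did. These values do not settle whether a number marks the same mouse, and the numbers were not taken as pairs. With the replicate block, 0 retinoid genes passed in gingiva, 1 in each DAC estradiol comparison (Aldh1a2, 1.497 and 1.36), and 29, 23 and 28 between the tissues (tissue counts here include Adh6a). The 12 genes under the filter were not tested at this depth.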
